A study of Mus musculus with 16 samples.

Results

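Lungs of mice that received BIBO3304 and no cancer cells were compared with lungs of mice that received vehicle and no cancer cells, across every annotated cell type. The cells were chosen by the deposited cell table, where the seeding state is written as nonIV and the condition as BIBO or control. That selection held 35193 of 80449 cells and 6 of 15 samples. BIBO3304 samples 1 to 3 held 4145, 3888 and 5279 cells, and vehicle samples 1 to 3 held 8010, 6295 and 7576 cells. Single live cells were sorted from dissociated whole lung, fixed, barcoded by split-pool combinatorial indexing and sequenced, and the deposited values are transcript counts per gene and cell. Other arms of the series are used where a comparison needs them, namely BIBO3304 with seeded pancreatic ductal adenocarcinoma (PDAC) cells, vehicle with PDAC cells, and 6-OHDA without PDAC cells. The main fits of genes and shares took in samples of all 6 groups, 6-OHDA with PDAC cells included. Gene filter, scaling and the estimate of spread therefore rest on all arms, also for BIBO3304 against vehicle. 6-OHDA is a toxin that destroys sympathetic nerve terminals. The sources used here do not give strain, age, dose, treatment time or hour of collection. It is not stated if samples with different numbers come from different animals, so p-values measure only the spread between these samples, which may be technical.

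BIBO3304 blocks NPY1R, a receptor for neuropeptide Y that couples to inhibitory G proteins. Neuropeptide Y is stored with norepinephrine in sympathetic nerve endings, which in the lung run along arteries and airways and reach smooth muscle, endothelium, fibroblasts and resident immune cells. The peptide constricts vessels through NPY1R, and immune cells and stromal cells of several tissues are known to carry the receptor.

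Depth differed between the groups before any gene was compared. BIBO3304 samples 1 to 3 held 15048517, 26555562 and 25185750 transcripts, and vehicle samples 1 to 3 held 21346701, 13309318 and 18800423. The median cell held 2631, 4846.5 and 3534 transcripts in the BIBO3304 samples, against 1807.5, 1640 and 1906 in the vehicle samples, so every BIBO3304 sample was deeper per cell. The median mitochondrial percent was 1.462, 1.098 and 0.968 in BIBO3304 samples and 1.988, 1.502 and 1.611 in vehicle samples. No first-round well and no barcode combination was shared between samples (0 of each). Defining markers were highest in the type of that name for all markers of 16 of the 21 lung types checked. Monocytes had 2 of 5 markers highest in their own type and large-vessel endothelial cells 2 of 4, so these labels are less certain. The exceptions included Cd209a, a dendritic cell marker, and Mrc1, listed for alveolar macrophages, both highest in the interstitial macrophages, and Pparg, listed for alveolar macrophages and highest in monocytes. BIBO3304 2, the deepest sample per cell, and vehicle 2, the shallowest, weighed most on the gene calls, as given with the counts below.

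The make-up of the cell suspension differed. Alveolar macrophages, which live on the airspace surface and clear surfactant and particles, were 19.9%, 17.5% and 16.1% of cells in BIBO3304 samples 1 to 3, against 35.5%, 42.5% and 36.2% in vehicle samples 1 to 3. The groups did not overlap, and the lowest vehicle share was well above the highest BIBO3304 share. The mean was 17.8% ± 1.94 under BIBO3304 and 38.1% ± 3.84 under vehicle (SD, n = 3 each). The share fell by 1.09 on the log2 scale (SE 0.22), with an adjusted p of 0.00306 in edgeR's quasi-likelihood test on cell numbers. An exact two-sided permutation test gave p = 0.1, the smallest that 3 against 3 samples allow. Left out one at a time, no sample ended the call, and the log2 fold change ran from -1.18 to -1.01.

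Club cells, the secretory cells of the bronchioles, fell as well. They numbered 3, 2 and 4 in BIBO3304 samples and 11, 28 and 20 in vehicle samples, which is 0.0724%, 0.0514% and 0.0758% against 0.137%, 0.445% and 0.264%. Each BIBO3304 share lay below each vehicle share, but the call rests on 9 against 59 cells. Pooled, the exact 95% Clopper-Pearson interval was 0.0309% to 0.128% under BIBO3304 and 0.205% to 0.348% under vehicle, which covers counting error only. The log2 fold change was -2.002 ± 0.48 (SE) with an adjusted p of 0.00858 by edgeR.

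These were 2 of 22 types that passed, 9 had an unadjusted p under 0.05, and the shares of 12 did not overlap between the groups. General capillary endothelial cells (gCap) were 14.7%, 17.4% and 17.1% of cells in BIBO3304 samples and 9.76%, 5.00% and 10.9% in vehicle samples. The BIBO3304 shares were all higher, with a log2 fold change of 0.94 ± 0.31 (SE) and an adjusted p of 0.0592 by edgeR, so the type did not pass. Alveolar capillary cells (aCap), the thin capillary cells that face the gas-exchange surface, had 3.38%, 3.24% and 3.86% under BIBO3304 and 2.42%, 1.29% and 2.32% under vehicle, with an adjusted p of 0.0825. Alveolar type 2 cells, which secrete surfactant, had 6.59%, 5.97% and 6.88% under BIBO3304 and 4.66%, 2.64% and 5.35% under vehicle, with an adjusted p of 0.121. The lowest vehicle share of all 3 types was that of vehicle 2, which also had the highest share of alveolar macrophages. Shares sum to 100, so a lower share of the most numerous type raises the others. Counted among cells other than alveolar macrophages, gCap cells were 18.4%, 21.1% and 20.3% under BIBO3304 and 15.1%, 8.70% and 17.04% under vehicle, and alveolar type 2 cells were 8.23%, 7.23% and 8.20% against 7.22%, 4.59% and 8.39%. With that denominator club cells passed again at -2.42 ± 0.51 (adjusted p 0.00364), and dendritic cells passed as lower at -0.96 ± 0.27 (adjusted p 0.0250), whereas dendritic cells did not pass as a share of all cells (1.71%, 2.26% and 1.69% under BIBO3304, 2.76%, 2.92% and 2.57% under vehicle, adjusted p 0.102). A share in a suspension gives no number of cells per lung. The plot of shares by type gives each sample.

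**Figure D1:**
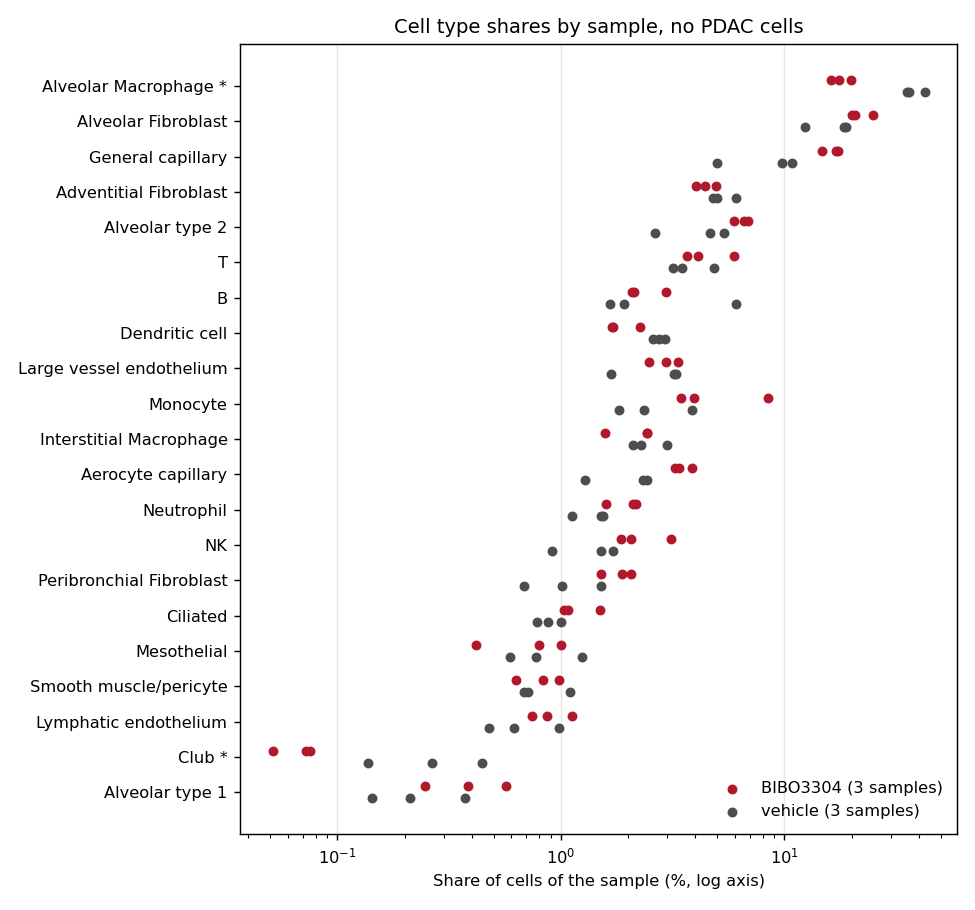
Share of each of 21 cell types in each sample, in percent of all cells of the sample on a log axis, with BIBO3304 samples in red above vehicle samples in grey, and an asterisk where the adjusted p was under 0.05. Alveolar macrophages (16.1% to 19.9% under BIBO3304, 35.5% to 42.5% under vehicle) and club cells carry the asterisks.

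The receptor that BIBO3304 blocks was rare in these data. Npy1r had 32, 68 and 41 transcripts in the whole of BIBO3304 samples 1 to 3, against 24, 13 and 26 in vehicle samples 1 to 3. Alveolar fibroblasts, the interstitial cells that support the alveolar wall, were the type with enough Npy1r for a test, at 20, 51 and 33 transcripts under BIBO3304 and 11, 3 and 16 under vehicle. That is 4.71, 8.08 and 5.22 CPM (counts scaled to a common library total, here with the sample's TMM factor) in BIBO3304 samples and 2.52, 2.21 and 4.27 CPM in vehicle samples. The BIBO3304 values were all higher, but the log2 fold change of 0.94 ± 0.32 (SE) had an adjusted p of 0.135 by edgeR and did not pass. Relative to all transcripts of a type, Npy1r was highest in smooth muscle cells and pericytes, with 11 of 268133 transcripts under BIBO3304 and 10 of 288565 under vehicle, then in the mesothelium with 3 and 9 transcripts. Npy itself had 1 transcript under BIBO3304 and 2 under vehicle in all 6 samples together. Npy2r had 0 in both groups, which allows up to 0.0449 CPM under BIBO3304 and 0.0561 CPM under vehicle. The peptide is made by neurons whose cell bodies lie outside the lung.

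Genes of the adrenergic side of the same nerves were measured in 49 tests over 13 types, and none passed by edgeR (0 called, 6 at an unadjusted p under 0.05, 1 called by DESeq2), with 28 positive and 21 negative differences and a median log2 fold change of 0.04. Adra1a, the alpha-1A adrenoceptor, was at 597, 723 and 722 CPM in alveolar fibroblasts under BIBO3304, against 510.2, 318 and 461 CPM under vehicle. All BIBO3304 samples were above all vehicle samples, at 0.66 ± 0.18 (SE), adjusted p 0.0713. Adrb3, the beta-3 adrenoceptor, was at 34.8, 43.1 and 30.9 CPM in the same cells under BIBO3304 and 25.0, 27.97 and 23.5 CPM under vehicle, also without overlap and also not past the threshold (0.53 ± 0.17, adjusted p 0.115). Adrb1, the beta-1 adrenoceptor, leaned the other way in alveolar macrophages, with 34.0, 36.6 and 36.1 CPM under BIBO3304 and 53.8, 49.0 and 42.9 CPM under vehicle (-0.45 ± 0.12, adjusted p 0.112). Dpp4, a peptidase that trims neuropeptide Y, had 5 positive and 7 negative differences in 12 types. Slc6a2, the norepinephrine transporter, was concentrated in large-vessel endothelial cells at 497, 525 and 459 CPM under BIBO3304 and 549, 612 and 635 CPM under vehicle (-0.28 ± 0.19, adjusted p 0.819). The members of both lists named here were chosen after their values were seen.

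Over 19 cell types with enough cells, 113537 gene tests gave 349 calls at an adjusted p under 0.05 by edgeR, which is 0.307% of tests. Of these, 91 were higher under BIBO3304 (0.0802%) and 258 were lower (0.227%), and 14662 tests had an unadjusted p under 0.05. Alveolar fibroblasts held 70 higher and 86 lower calls, alveolar type 2 cells 10 and 119, B cells 0 and 21, alveolar macrophages 2 and 9, interstitial macrophages 7 and 3, and aCap cells 0 and 9. gCap cells, dendritic cells, NK cells and neutrophils had 0 calls each, with 946, 609, 399 and 319 tests at an unadjusted p under 0.05 and 2, 21, 2 and 10 calls by DESeq2. The groups did not overlap in 346 of the 349 calls, and 348 had the same sign whichever sample was left out. Calls chosen by a small p in these same samples tend to show both, so neither count is added evidence. The share of all tests without overlap is not given here. For a single gene or sum of markers, called or not, a lack of overlap between 3 and 3 samples reaches only p = 0.1 in an exact two-sided permutation test. The number past the threshold hung on single samples. It was 189, 23 and 712 without BIBO3304 1, 2 or 3, 66, 25 and 101 without vehicle 1, 2 or 3, and 5 without BIBO3304 2 and vehicle 2 together. Calls that held in all 6 of these fits numbered 14, and all 14 were in alveolar fibroblasts.

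Genes of the circadian clock were called in 4 cell types. In this loop, CLOCK or its close relative NPAS2 pairs with BMAL1 (gene Arntl) to switch on genes with E-boxes in their promoters, among them the period and cryptochrome repressors, the nuclear receptor gene Nr1d1 (REV-ERB alpha) and the output factors Dbp and Tef. REV-ERB alpha represses Arntl and Npas2 through ROR elements, so in most mouse tissues Arntl and Npas2 peak at the opposite time of day to Nr1d1, Dbp and Tef. Of 94 tests of clock activators, 5 were called higher and 1 lower (6.38%, against 0.307% of all tests), with 71 positive differences and a median log2 fold change of 0.27. Of 113 tests of clock repressors and outputs, 3 were called lower (2.65%), with 75 negative differences and a median of -0.21, against a median of 0.00 over all tests.

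Promoter windows of 2 clock genes that moved in opposite directions are shown because both hold an element of the loop. The letters are RefSeq's, from mouse build GRCm38.p6 on the plus strand, 250 bases before to 50 after an annotated start. Capitals mark the core of a ROR element (AGGTCA) in Arntl, chr7:113207261-113207560, and an E-box (CACGTG) in Tef, chr15:81811164-81811463. Both strands were searched.
Arntl: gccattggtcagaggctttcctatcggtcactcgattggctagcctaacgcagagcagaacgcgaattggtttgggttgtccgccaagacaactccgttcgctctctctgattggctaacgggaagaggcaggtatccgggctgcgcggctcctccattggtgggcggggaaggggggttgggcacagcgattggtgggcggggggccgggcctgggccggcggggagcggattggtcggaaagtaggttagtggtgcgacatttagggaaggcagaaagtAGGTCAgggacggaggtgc
Tef: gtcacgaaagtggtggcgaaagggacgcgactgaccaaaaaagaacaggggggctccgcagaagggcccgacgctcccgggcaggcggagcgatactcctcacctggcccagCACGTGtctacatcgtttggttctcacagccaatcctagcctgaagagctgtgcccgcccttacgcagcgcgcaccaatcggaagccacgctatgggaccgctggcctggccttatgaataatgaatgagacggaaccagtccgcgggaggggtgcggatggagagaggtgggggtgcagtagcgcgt
AGGTCA was found in 16.3% and CACGTG in 7.15% of 32851 such windows, so a match describes the window and does not mark a site in use. The other Arntl window held neither motif, the other Tef window held 1 E-box, and no window of Npas2, Dbp or Nr1d1 held either.

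Npas2 had the largest change of the activators. In alveolar fibroblasts it was at 65.2, 55.6 and 109 CPM in BIBO3304 samples 1 to 3, against 19.5, 6.63 and 16.8 CPM in vehicle samples 1 to 3. The lowest BIBO3304 value was well above the highest vehicle value. The log2 fold change was 2.28 ± 0.37 (SE) with an adjusted p of 0.00708 by edgeR, and the call held whichever sample was left out. In alveolar type 2 cells Npas2 was at 101, 96.1 and 117 CPM under BIBO3304 and 31.0, 31.0 and 31.0 CPM under vehicle, a rise of 1.75 ± 0.33 on the log2 scale (adjusted p 0.0170). Both groups were tight there, and they did not overlap. Elsewhere the differences had the same direction without passing: Npas2 was positive in 9 of the 9 types tested, with peribronchial fibroblasts at 208, 233 and 204 CPM under BIBO3304 and 40.9, 0 and 107 CPM under vehicle (1.87, adjusted p 0.109). All types came from the same 6 samples, so counts of types with the same direction, here and below, are not independent.

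Arntl rose with it. In alveolar fibroblasts Arntl was at 88.0, 95.5 and 123 CPM under BIBO3304 and 40.4, 24.3 and 39.7 CPM under vehicle (1.501 ± 0.29, adjusted p 0.0218), and in alveolar type 2 cells at 90.5, 77.0 and 71.8 CPM under BIBO3304 and 30.0, 31.0 and 36.9 CPM under vehicle (1.26 ± 0.29, adjusted p 0.0376). No BIBO3304 sample overlapped a vehicle sample in either type. Arntl was positive in 15 of 16 types, with a median log2 fold change of 0.47. Clock rose in alveolar fibroblasts, with 133, 167 and 149 CPM under BIBO3304 and 98.4, 67.7 and 98.4 CPM under vehicle (0.74 ± 0.16, adjusted p 0.0321), and was positive in 15 of 18 types. Rora, which encodes the activating receptor ROR alpha, was mixed, with 11 positive and 8 negative differences, and was called in B cells as lower (-1.95). Arntl and Npas2 were called in both types under the rule for named genes, and the other clock genes with calls were chosen after their values were seen.

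Of the repressors and outputs, Dbp, Tef and Nr1d1 each fell in 1 type. Dbp, a D-box binding factor tested in 1 type, was low in alveolar fibroblasts at 1.41, 3.48 and 1.27 CPM under BIBO3304, against 10.8, 10.3 and 10.4 CPM under vehicle. Every BIBO3304 value lay far below the vehicle values, which were close together. The log2 fold change was -2.30 ± 0.54 (SE, adjusted p 0.0445), from 36 against 100 transcripts. Tef, its relative, was at 12.4, 12.5 and 8.15 CPM in alveolar type 2 cells under BIBO3304 and 30.0, 27.5 and 25.999 CPM under vehicle (-1.33 ± 0.33, adjusted p 0.0427). Tef was negative in 10 of 10 types. Hlf, another member of that family, had 3 positive and 2 negative differences (median 0.03). Nr1d1 fell in alveolar macrophages, with 4.83, 2.26 and 2.86 CPM under BIBO3304 and 8.70, 11.4 and 7.96 CPM under vehicle (-1.54 ± 0.26, adjusted p 0.0413), and was negative in 9 of 9 types. In alveolar fibroblasts Nr1d1 was at 64.0, 88.0 and 50.3 CPM under BIBO3304 and 118, 95.7 and 126 CPM under vehicle, apart but not called (adjusted p 0.0823).

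The other repressors had no call and mixed directions. Nr1d2, a close relative of Nr1d1, was negative in 15 of 18 types with a median of -0.46 and 0 calls by edgeR. Per1, a period repressor that also responds to glucocorticoids, was negative in 13 of 19 types (median -0.14). Per2, the other main period repressor, was positive in 8 of 9 types (median 0.40), with ciliated cells at 162, 192 and 87.7 CPM under BIBO3304 and 106, 64.8 and 50.8 CPM under vehicle, which overlapped. Nfil3, which opposes Dbp and Tef at D-boxes, was positive in 14 of 17 types (median 0.24) and had no call. Cry1 and Cry2, the cryptochrome repressors, were positive in 6 of 14 and 4 of 14 types. Of the 9 calls among clock genes, 4, 2 and 4 held without BIBO3304 1, 2 or 3, and 1, 1 and 2 held without vehicle 1, 2 or 3. The highest adjusted p when a sample was left out was 0.0451 for Npas2 and 0.126 for Arntl in alveolar fibroblasts, 0.174 for Tef and 0.241 for Nr1d1, and all 9 differences kept their sign. The heat map of clock genes over types and the plot of clock and metallothionein genes by sample show these values.

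**Figure D2:**
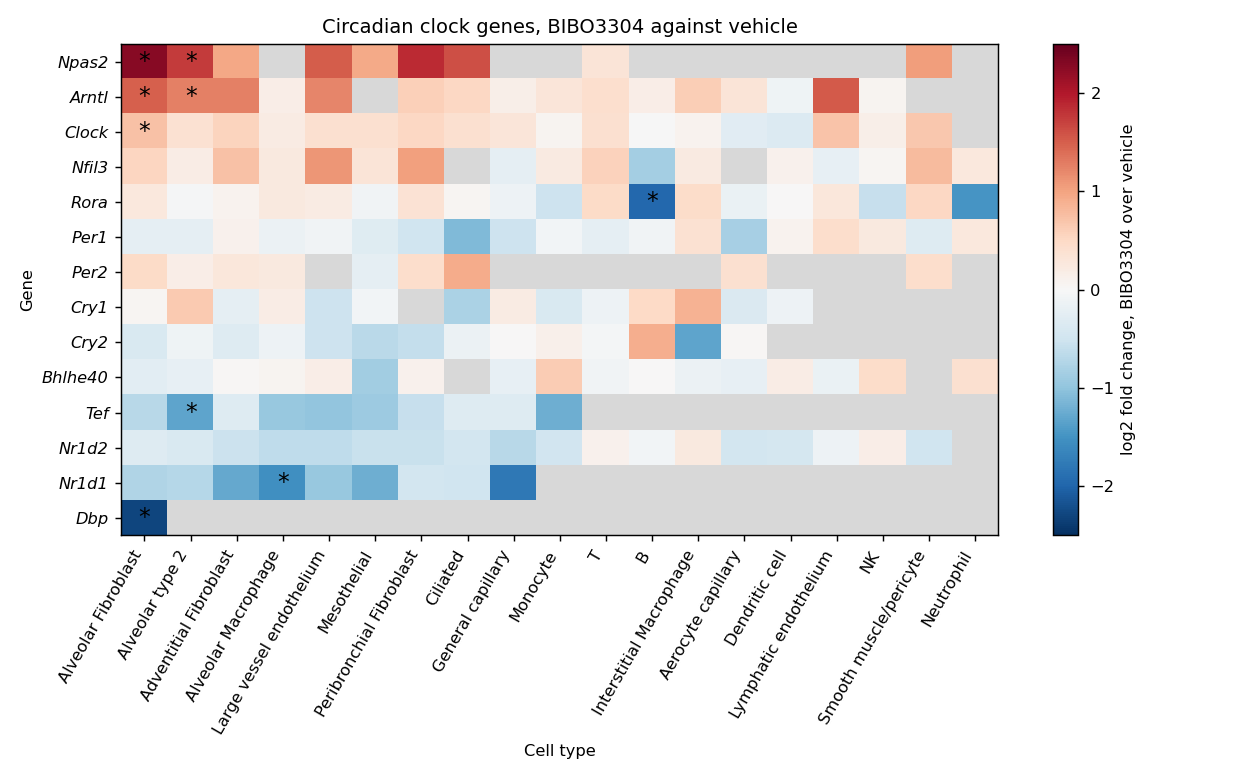
Log2 fold change of BIBO3304 against vehicle for 14 clock genes (rows) in 19 cell types (columns), with red for higher and blue for lower under BIBO3304, grey where the gene was not tested in the type, and an asterisk where the adjusted p was under 0.05. Npas2 and Arntl are red in nearly every tested type and Nr1d1 and Tef blue in every tested type.

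**Figure D3:**
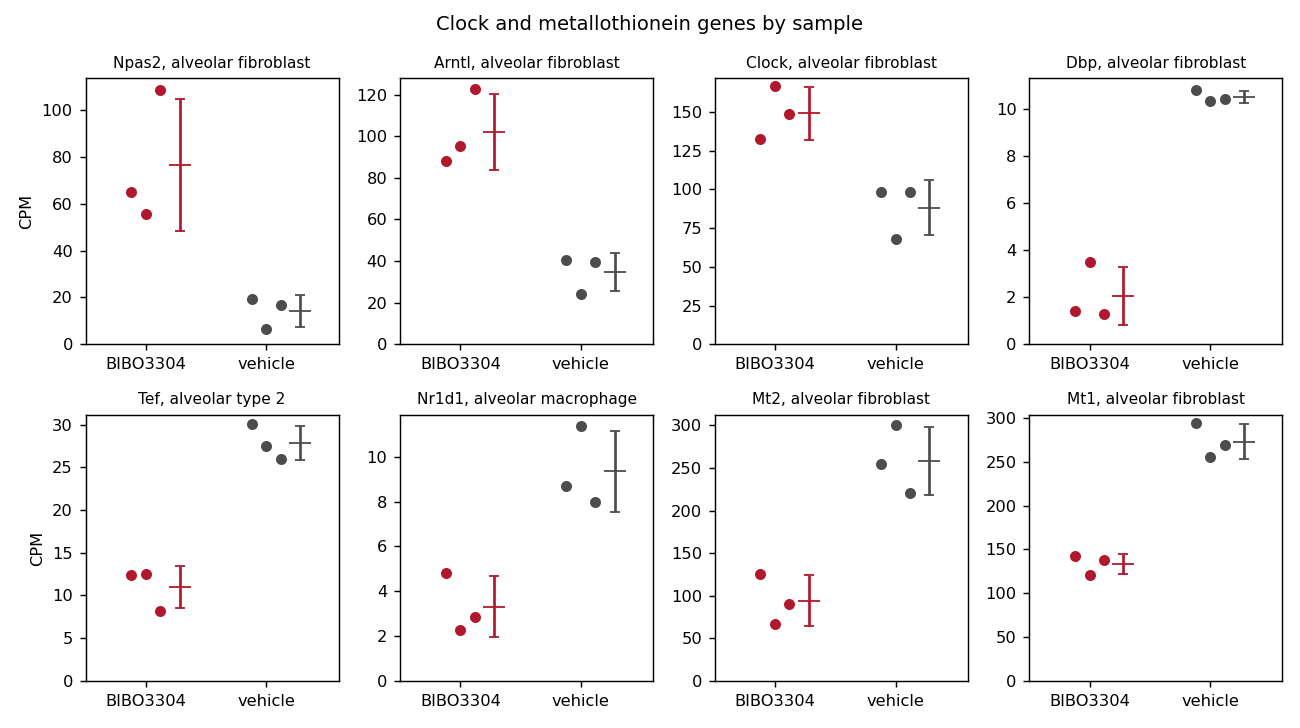
CPM of Npas2, Arntl, Clock, Dbp, Mt2 and Mt1 in alveolar fibroblasts, Tef in alveolar type 2 cells and Nr1d1 in alveolar macrophages, with BIBO3304 samples left of vehicle samples, 1 point per sample and bars for the mean with SD (n = 3 each). In none of the panels do the groups overlap.

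Metallothioneins, small cysteine-rich proteins that bind zinc and copper and are switched on by metals through metal-response elements and by glucocorticoids, fell. Of 41 tests of metallothioneins and zinc transporters, 4 were called, all lower (9.76%), with 30 negative differences and a median log2 fold change of -0.86. Mt2 was called in 3 types and negative in 14 of 14, and Mt1 was called in 1 type and negative in 13 of 13. The zinc transporter gene Slc39a10 was positive in 8 of 8 types with 0 calls. RefSeq windows of both genes, in build GRCm38.p6 on the plus strand, are shown with capitals on a loose form of the metal-response core (TGCNCNC, both strands): Mt2 at chr8:94172368-94172667 held 6 and Mt1 at chr8:94178839-94179138 held 3. The core itself has A or G at the first N. The Mt2 stretches TGCTCTC and GGGAGCA, the latter read on the other strand, have T there and match the loose form only. The loose form occurred in 51.0% of windows and at least 3 times in 7.10%, so a match does not mark a site in use.
Mt2: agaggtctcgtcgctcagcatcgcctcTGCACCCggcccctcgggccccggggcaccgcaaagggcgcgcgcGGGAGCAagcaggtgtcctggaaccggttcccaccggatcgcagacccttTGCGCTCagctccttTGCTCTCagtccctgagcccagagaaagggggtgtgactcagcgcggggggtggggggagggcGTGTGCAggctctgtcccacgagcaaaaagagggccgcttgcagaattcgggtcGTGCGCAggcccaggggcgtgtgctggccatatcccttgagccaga
Mt1: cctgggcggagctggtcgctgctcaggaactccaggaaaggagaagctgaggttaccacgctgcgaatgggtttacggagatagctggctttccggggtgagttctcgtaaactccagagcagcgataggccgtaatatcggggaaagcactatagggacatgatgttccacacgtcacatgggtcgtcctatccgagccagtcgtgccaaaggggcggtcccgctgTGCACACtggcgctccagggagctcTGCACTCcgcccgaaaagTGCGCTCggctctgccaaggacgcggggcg

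In alveolar fibroblasts Mt2 was at 126, 66.3 and 90.2 CPM in BIBO3304 samples 1 to 3 and 255, 300.3 and 221 CPM in vehicle samples 1 to 3. Every vehicle sample was above every BIBO3304 sample. The log2 fold change was -1.46 ± 0.20 (SE) with an adjusted p of 0.00457 by edgeR, and the call held whichever sample was left out and with BIBO3304 2 and vehicle 2 both left out (adjusted p 0.0447). Mt1 was at 142, 120.3 and 138 CPM under BIBO3304 and 294, 255 and 269 CPM under vehicle (-1.03 ± 0.18, adjusted p 0.00835), and lost its call only without BIBO3304 2 (adjusted p 0.0542). In adventitial fibroblasts, which surround vessels and airways, Mt2 was at 142, 133 and 105 CPM under BIBO3304 and 299, 567 and 289.7 CPM under vehicle (-1.59 ± 0.27, adjusted p 0.0239), and in alveolar type 2 cells at 9.30, 1.95 and 8.66 CPM under BIBO3304 and 17.8, 37.8 and 21.8 CPM under vehicle (-1.86 ± 0.48, adjusted p 0.0464). Both are short genes, and short genes were lower as a class (below). With the trend over gene length removed, Mt2 in alveolar fibroblasts was at -0.93 (adjusted p 0.0225), while Mt1 there (-0.57, adjusted p 0.195) and Mt2 in adventitial fibroblasts (-0.87, adjusted p 0.124) and alveolar type 2 cells (-1.09, adjusted p 0.285) no longer passed. The list of 15 glucocorticoid-induced genes measured, which holds both metallothioneins, had 6 calls in 207 tests (2.90%), all lower, and a median of -0.33. Of that list 1 call was made with the length trend removed and 1 without BIBO3304 2. The other 2 calls on that list were Angptl4 in adventitial fibroblasts and Lcn2 in alveolar type 2 cells, and Lcn2 was named after its value was seen.

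Alveolar fibroblasts held 156 calls among 12626 genes. With the 6 compared samples fitted alone they held 33, against 169 in alveolar type 2 cells and 180 in B cells. Among the 70 rises, Fat3, an atypical cadherin, was at 725, 1089 and 763 CPM under BIBO3304 and 379, 296 and 443 CPM under vehicle (1.20 ± 0.17, adjusted p 0.00457). Its BIBO3304 values were all above its vehicle values. Gsg1l, which encodes a subunit that modulates glutamate receptors in neurons, was at 36.9, 35.9 and 38.1 CPM under BIBO3304 and 18.1, 10.3 and 12.5 CPM under vehicle (1.37 ± 0.22, adjusted p 0.00708). Zmat4, a zinc-finger gene, was at 25.4, 24.1 and 24.8 CPM under BIBO3304 and 8.71, 6.63 and 10.4 CPM under vehicle (1.47 ± 0.20, adjusted p 0.00457). These genes, together with Negr1 (0.88 ± 0.14), which encodes a neuronal adhesion protein, and Vgll3 (0.91 ± 0.15), a cofactor of TEAD transcription factors, kept their calls whichever sample was left out. Zmat4, Negr1 and Vgll3 were chosen after their values were seen.

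Pdgfra, the platelet-derived growth factor receptor that marks these fibroblasts, was at 1204, 1297 and 1377 CPM under BIBO3304 and 961, 709.6 and 794 CPM under vehicle. Every BIBO3304 sample was above every vehicle sample, and the gene rose by 0.65 ± 0.16 (SE, adjusted p 0.0459). It was the only call in 78 tests of niche growth factors and their receptors (1.28%, median 0.13). Plxna2, a semaphorin receptor, rose by 0.74 ± 0.15 (137, 115 and 146 CPM under BIBO3304, 91.5, 67.0 and 76.0 CPM under vehicle, adjusted p 0.0263), and was the only call in 183 tests of axon guidance genes (0.546%, median 0.11). Pard6g, a cell polarity gene, rose by 1.24 ± 0.25, and Iigp1, a GTPase induced by interferon gamma, by 1.07 ± 0.20, with 106, 179.6 and 162 CPM under BIBO3304 and 64.4, 77.3 and 74.1 CPM under vehicle (adjusted p 0.0214).

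Several immediate early genes, which are switched on within minutes by growth factors or stress, fell in the same cells. Junb, a subunit of the AP-1 factor, was at 690.3, 512 and 811 CPM under BIBO3304 and 1173, 1628 and 1202 CPM under vehicle (-0.99 ± 0.19, adjusted p 0.0214). Jund, another AP-1 subunit, was at 528, 294 and 627 CPM under BIBO3304 and 935, 1380.2 and 1001 CPM under vehicle (-1.19 ± 0.23, adjusted p 0.0218). In both genes BIBO3304 2 was lowest and vehicle 2 highest, and the groups were apart. Nr4a1, an orphan nuclear receptor induced by cAMP and stress, fell by 0.66 on the log2 scale and Ier3, a stress-response gene, by 1.06. Over all types, 13 of 329 tests of immediate early genes were called (3.95%), all lower, with a median of -0.35, and with the trend over gene length removed 3 were called and the median was 0.00. Without BIBO3304 2 there were 0 calls on that list and without vehicle 2 there was 1. The dissociation stress list, which holds several of these genes, had 3 calls in 221 tests (1.36%), all lower, and a median of -0.30. Sphk1, the kinase that makes sphingosine 1-phosphate, was at 23.3, 24.4 and 27.2 CPM under BIBO3304 and 57.6, 51.5 and 53.6 CPM under vehicle (-1.12 ± 0.18, adjusted p 0.00708). Plce1, a phospholipase C, was at 18.6, 21.9 and 20.6 CPM under BIBO3304 and 42.2, 48.6 and 39.7 CPM under vehicle (-1.07 ± 0.17, adjusted p 0.00708). Sphk1 and Plce1 kept their calls whichever sample was left out, and both were chosen after their values were seen. Smaller falls reached Cxcl1, a neutrophil chemokine (-0.80), C4b, a complement component (-0.66), and Ccnd2, cyclin D2 (-0.90). Lgals3, which encodes galectin-3, fell by 1.25 on the log2 scale to 25.3 CPM ± 8.57 under BIBO3304, against 61.7 CPM ± 18.6 under vehicle (SD, n = 3 each), and in vehicle lungs it was higher in alveolar macrophages, at 406 CPM. The number of calls in alveolar fibroblasts was 154, 21 and 82 without BIBO3304 1, 2 or 3 and 37, 18 and 37 without vehicle 1, 2 or 3.

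Alveolar type 2 cells had 129 calls among 8416 genes, of which 119 were lower. Ccl6, a chemokine of myeloid cells, was at 16.7, 14.5 and 23.9 CPM under BIBO3304 and 50.6, 79.1 and 64.6 CPM under vehicle (-1.76 ± 0.29, adjusted p 0.00944). Cyba, a subunit of the phagocyte NADPH oxidase, was at 24.8, 16.02 and 25.5 CPM under BIBO3304 and 65.7, 75.7 and 64.6 CPM under vehicle (-1.62 ± 0.27, adjusted p 0.00944). The groups were apart in both. Fabp4, a fatty acid carrier of macrophages and endothelium, was at 2.48, 0.391 and 3.06 CPM under BIBO3304 and 11.3, 13.8 and 17.6 CPM under vehicle (-2.90 ± 0.56, adjusted p 0.0170), and Srgn, the granule proteoglycan serglycin, fell by 1.64 on the log2 scale. In vehicle lungs alveolar macrophages had 964 CPM of Ccl6, 272 CPM of Cyba, 106 CPM of Fabp4 and 180.2 CPM of Srgn, each above the level in alveolar type 2 cells. The 7 alveolar macrophage markers together had 156, 72.4 and 126 CPM in alveolar type 2 cells under BIBO3304, against 203, 282 and 295 CPM under vehicle, with none of the 7 at 0 over the 6 samples together. That sum was lower under BIBO3304 without overlap in 13 of 19 types, among them alveolar fibroblasts (91.7 to 256 CPM against 319 to 416 CPM). Summed markers of other types were lower in many types as well. Those of club cells were lower without overlap in 7 types and with overlap in 11, those of alveolar type 2 cells in 7 and 10, and those of T cells in 4 and 13. The shares of alveolar macrophages and club cells fell, while those of alveolar type 2 cells and T cells had positive differences that did not pass. The part of RNA from other cells in these falls was not tested. The level in alveolar macrophages was at least 10 times that in the type itself for 5 of the 119 falls in alveolar type 2 cells and for 10 of the 258 falls in all types. Over all types, 168 tests of a longer list of alveolar macrophage markers had a median of -1.12 and 2 calls (1.19%), Fabp4 here and Krt79 in adventitial fibroblasts.

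Other falls in alveolar type 2 cells were of genes with other roles. Elovl1, which lengthens very long fatty acids, was at 112, 125 and 107 CPM under BIBO3304 and 228, 175 and 195 CPM under vehicle (-0.81 ± 0.18, adjusted p 0.0347), and alveolar type 2 cells were the type with its highest vehicle level. Psmb10, a subunit of the immunoproteasome, was at 1.24, 2.34 and 2.55 CPM under BIBO3304 and 11.3, 17.2 and 7.55 CPM under vehicle (-2.27 ± 0.58, adjusted p 0.0464). Cox5a, a subunit of cytochrome c oxidase, was at 35.3, 16.4 and 48.9 CPM under BIBO3304 and 65.7, 96.3 and 78.0 CPM under vehicle (-1.22 ± 0.31, adjusted p 0.0439). Jund was at 577, 358 and 861 CPM under BIBO3304 and 1419, 2164 and 1203 CPM under vehicle (-1.40 ± 0.28, adjusted p 0.0180). In all 4 genes the groups were apart. Alveolar macrophages of vehicle lungs had 29.8 CPM of Psmb10 and 144 CPM of Cox5a, above the level in alveolar type 2 cells, and 481 CPM of Jund and 19.6 CPM of Elovl1, below it. Ribosomal protein genes were 24 of the 119 falls. Surfactant production genes had 0 calls by edgeR in 116 tests over all types, with 26 at an unadjusted p under 0.05, 2 calls by DESeq2 and a median of -0.53. Of the 10 rises, Ppard, the lipid-sensing receptor PPAR delta, was at 37.8, 37.1 and 29.5 CPM under BIBO3304 and 16.9, 27.5 and 11.7 CPM under vehicle (1.10 ± 0.29, adjusted p 0.0464), Hycc1, a component of a lipid kinase complex, rose by 1.05 ± 0.23 and Sh3rf3, an E3 ubiquitin ligase, by 0.91 ± 0.22. The number of calls in alveolar type 2 cells was 0, 2 and 311 without BIBO3304 1, 2 or 3 and 1, 0 and 13 without vehicle 1, 2 or 3, and DESeq2 called 84.

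Interstitial macrophages, which sit in the lung tissue near vessels and nerves, had 10 calls among 6443 genes, 7 higher and 3 lower. Their cells numbered 101, 61 and 128 in BIBO3304 samples and 182, 188 and 160 in vehicle samples. Zdhhc14, a palmitoyltransferase, was at 601, 1513 and 689 CPM under BIBO3304 and 169, 163 and 284 CPM under vehicle (2.18 ± 0.36, adjusted p 0.0305). BIBO3304 2 was the highest, and the other 2 BIBO3304 samples were still above every vehicle sample. Itga9, the integrin alpha 9 chain, was at 148, 256 and 179.9 CPM under BIBO3304 and 47.0, 60.5 and 50.5 CPM under vehicle (1.89 ± 0.34, adjusted p 0.0305). St18, a zinc-finger transcription factor gene, was at 119, 190.1 and 109.8 CPM under BIBO3304 and 47.0, 45.4 and 45.2 CPM under vehicle (1.598 ± 0.30, adjusted p 0.0305). St18 had its highest vehicle level in this type and 0.714 CPM in alveolar macrophages. Cnksr3, a signalling scaffold, rose by 1.604 ± 0.31, Tanc2, a synaptic scaffold in neurons, by 1.47 ± 0.29, Pitpnc1, a phospholipid transfer protein, by 1.35 ± 0.26, and Mdfic, a regulator of transcription, by 1.11 ± 0.21. Pitpnc1 and Mdfic were chosen after their values were seen.

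The falls in interstitial macrophages were of 3 genes. Olr1, the receptor LOX-1 for oxidised lipoproteins, was at 66.1, 52.8 and 63.1 CPM under BIBO3304 and 322, 436 and 205 CPM under vehicle (-2.39 ± 0.45, adjusted p 0.0305), and its highest vehicle level was in alveolar macrophages, at 760.1 CPM. The BIBO3304 samples were close together and all far below the vehicle samples. The part of alveolar macrophage RNA in this fall was not tested. The 7 alveolar macrophage markers summed to 3027, 4872 and 2464 CPM in interstitial macrophages under BIBO3304 and 2354, 1998 and 2438 CPM under vehicle, but they include Mrc1, which was highest in interstitial macrophages themselves. Anp32b, a histone chaperone, was at 76.7, 58.1 and 93.5 CPM under BIBO3304 and 139, 266 and 191 CPM under vehicle (-1.37 ± 0.26, adjusted p 0.0305), and Fgr, a Src-family kinase, at 138, 108 and 129 CPM under BIBO3304 and 289, 206 and 269 CPM under vehicle (-1.03 ± 0.21, adjusted p 0.0475). All 10 calls passed with the trend over gene length removed. The number of calls in this type was 12, 0 and 14 without BIBO3304 1, 2 or 3 and 1, 0 and 0 without vehicle 1, 2 or 3. The plot of genes in interstitial macrophages gives each sample.

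**Figure D4:**
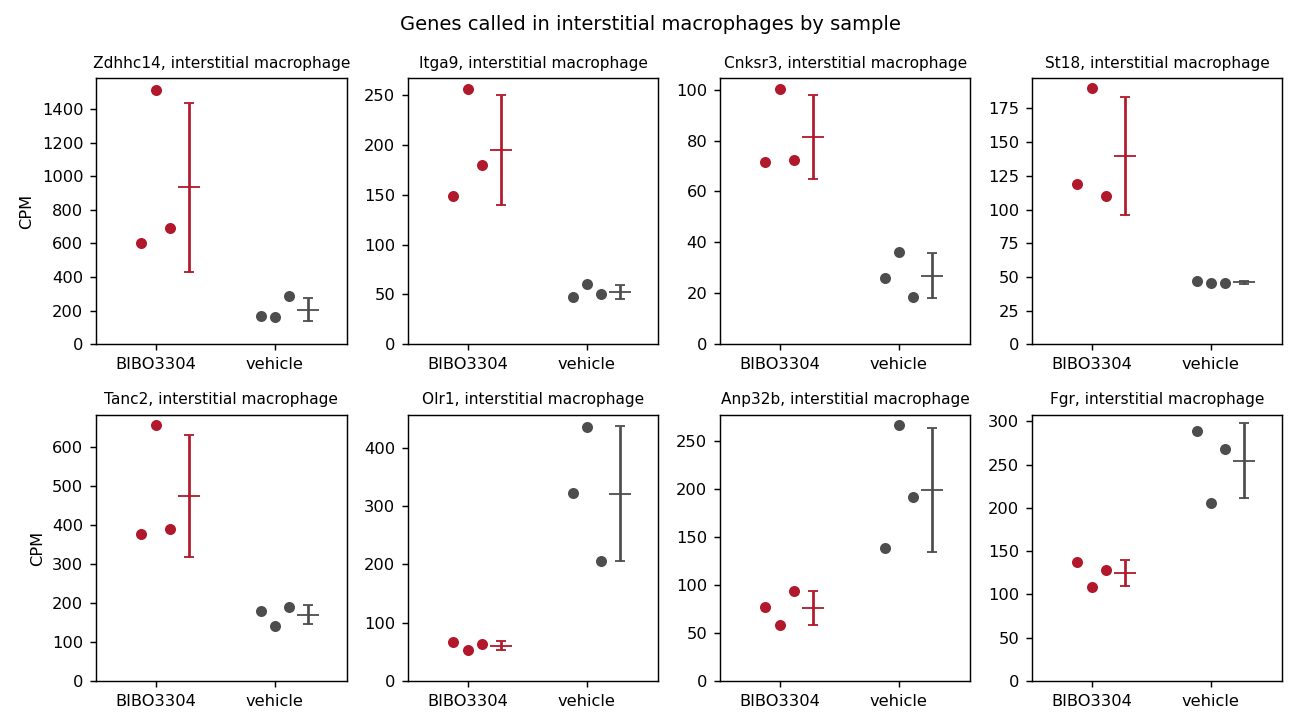
CPM of 5 genes that rose (Zdhhc14, Itga9, Cnksr3, St18, Tanc2) and 3 that fell (Olr1, Anp32b, Fgr) in interstitial macrophages, with BIBO3304 samples left of vehicle samples, 1 point per sample and bars for the mean with SD (n = 3 each). In each panel the 3 BIBO3304 points lie on 1 side of the 3 vehicle points.

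B cells had 21 calls among 5582 genes, all lower. Tox, a regulator of T cell development and exhaustion, was at 5.29, 16.7 and 36.5 CPM under BIBO3304 and 57.5, 143 and 92.1 CPM under vehicle (-2.42 ± 0.47, adjusted p 0.0325). Camk4, a calcium-dependent kinase of T cells, fell by 2.08 on the log2 scale. In vehicle lungs both genes were highest in T cells, at 699 CPM of Tox and 922 CPM of Camk4. The T cell markers Cd3e, Cd3g and Trac together had 12.3, 0 and 7.60 CPM in the B cells of BIBO3304 samples, against 19.8, 35.2 and 18.7 CPM in those of vehicle samples. All 3 were at 0 in BIBO3304 2, and none was at 0 over the 6 samples together. Alveolar macrophage markers (79.0 to 236 CPM against 401 to 531 CPM) and alveolar type 2 markers (59.8 to 200.1 CPM against 313 to 357 CPM) were lower in the same B cells too, also without overlap. The part of any of these in the falls was not tested. Cd300a, an inhibitory receptor of myeloid and lymphoid cells (-2.87), Cd9, a tetraspanin (-1.97), and Rora, at 23.8, 14.6 and 48.7 CPM under BIBO3304 and 95.8, 107 and 124 CPM under vehicle (-1.95 ± 0.41, adjusted p 0.0367), fell too. Of the 21 calls, 8 were ribosomal protein genes. The number of calls was 0, 0 and 112 without BIBO3304 1, 2 or 3 and 9, 2 and 17 without vehicle 1, 2 or 3. Camk4 and Rora were chosen after their values were seen.

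In aCap cells Crip1, a small LIM-domain protein, was at 125, 137 and 153 CPM under BIBO3304 and 296, 289.5 and 328 CPM under vehicle (-1.14 ± 0.19, adjusted p 0.00608). The groups were far apart, and the call was lost only without BIBO3304 2 (adjusted p 0.0503). Fosb, an immediate early gene, was at 656, 579 and 513 CPM under BIBO3304 and 1269.7, 1587 and 895 CPM under vehicle (-1.08 ± 0.20, adjusted p 0.0126). Ptprb, the endothelial phosphatase VE-PTP, was at 49.3, 23.8 and 44.8 CPM under BIBO3304 and 137, 139 and 127 CPM under vehicle (-1.77 ± 0.35, adjusted p 0.0181), and Plcb1, a phospholipase C, fell by 1.63 on the log2 scale. In vehicle lungs both were far higher in gCap cells, at 2815 CPM of Ptprb and 3480.2 CPM of Plcb1, and both were chosen after their values were seen. In adventitial fibroblasts Angptl4, an inhibitor of lipoprotein lipase, was at 12.03, 24.0 and 19.5 CPM under BIBO3304 and 56.1, 53.8 and 44.8 CPM under vehicle (-1.43 ± 0.25, adjusted p 0.0239). Krt79, a keratin gene used here as an alveolar macrophage marker, fell by 2.20 there on the log2 scale, beside 568 CPM in alveolar macrophages of vehicle lungs.

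Single calls came from other types. In monocytes Pecam1, an adhesion molecule of endothelium, platelets and monocytes, was at 246, 589 and 428 CPM under BIBO3304 and 130.1, 79.5 and 141 CPM under vehicle (1.88 ± 0.30, adjusted p 0.0138). The lowest BIBO3304 sample was above the highest vehicle sample, and aCap cells had its highest vehicle level, at 1422 CPM. In T cells Hsph1, a large heat shock chaperone, was at 89.5, 220.4 and 241 CPM under BIBO3304 and 22.5, 18.0 and 56.2 CPM under vehicle (2.47 ± 0.46, adjusted p 0.0472). It was the only call in 209 tests of heat shock chaperones (0.478%), which had 167 positive differences and a median of 0.36. In ciliated cells Slc6a14, an amino acid transporter gene, was at 34.2, 216 and 210.5 CPM under BIBO3304 and 1111, 885 and 330.3 CPM under vehicle (-2.25 ± 0.45, adjusted p 0.0228). Both groups were widely spread there, and Slc6a14 was chosen after its values were seen. In alveolar macrophages Spns1, a lysosomal transporter gene, was at 37.2, 32.2 and 33.4 CPM under BIBO3304 and 61.4, 72.7 and 52.7 CPM under vehicle (-0.86 ± 0.14, adjusted p 0.0369), and Vamp2, a vesicle fusion protein, fell by 1.10. S100a6, a calcium-binding protein, fell in 4 types, with log2 fold changes of -1.20 in alveolar fibroblasts, -1.29 in adventitial fibroblasts, -1.86 in alveolar type 2 cells and -1.65 in ciliated cells. Arf5, a small GTPase, fell in alveolar fibroblasts (-1.28) and alveolar macrophages (-1.37).

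Short genes were lower under BIBO3304 as a class. Gene length is the RefSeq span in GRCm38.p6, which 97.7% of tests and 93.7% of calls had. The median log2 fold change was -0.56 for genes under 3 kb, -0.27 at 3 to 10 kb, -0.06 at 10 to 30 kb, 0.06 at 30 to 100 kb, 0.11 at 100 to 300 kb and 0.09 above 300 kb. Called rises had a median length of 134 kb and called falls of 4.95 kb, against 37.9 kb over all tests. In alveolar type 2 cells 86 of the 111 falls with a length were under 10 kb, and in alveolar fibroblasts 42 of the 68 rises with a length were over 100 kb. Ribosomal protein genes, which are short, had 35 calls in 1224 tests (2.86%), all lower, with a median of -0.74. With the length trend removed 2 were called and the median was -0.36, and there were 0 calls without BIBO3304 2 or without vehicle 2 and 99 without BIBO3304 3. Several of them share reads with near-identical copies, so single members are uncertain. Their transcripts were 0.367% ± 0.144 of all transcripts in alveolar fibroblasts under BIBO3304 and 0.639% ± 0.0865 under vehicle (SD, n = 3 each), and the share was lower in 19 of 19 types. Protein genes of the mitochondrial genome had 9 calls in 128 tests (7.03%), all lower, with a median of -0.63, beside the lower mitochondrial percent above. Nuclear genes of oxidative phosphorylation had 4 calls in 229 tests (1.75%), all lower, with a median of -0.49. Depth per cell was higher in the BIBO3304 samples, and counts thinned to equal totals in each type gave 318 calls in 67651 tests, 165 of them among the 349, of which 323 were tested there. The part of depth in the length trend was not tested.

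Removing the trend of fold change over gene length within each type and sample, a step chosen after seeing the data, left 188 calls, 96 higher and 92 lower, of which 115 were among the 349. The share of higher calls was 51.1% after that step, 38.8% by DESeq2 and 26.1% in the edgeR fit. Calls then numbered 12 in alveolar type 2 cells, against 129 before, and 6 in B cells, against 21. Of the 76 called genes and types of the text, 41 stayed past the threshold and 35 did not. Those that stayed included Npas2 in both types, Arntl and Clock in alveolar fibroblasts, and Nr1d1 in alveolar macrophages. Mt2, Fat3, Gsg1l and Iigp1 in alveolar fibroblasts and the 10 genes of interstitial macrophages stayed too. Lost calls included Arntl in alveolar type 2 cells, Rora in B cells, Tef, Dbp, Junb, Pdgfra and Plxna2. Tef was then at -1.29 (adjusted p 0.0928), Dbp at -2.04 (0.0810), Pdgfra at 0.59 (0.0637) and Plxna2 at 0.65 (0.0526), close to their values before that step, and Junb was at -0.57 (0.0537), against -0.99 before it. The plot of fold change by gene length shows the trend in each type.

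**Figure D5:**
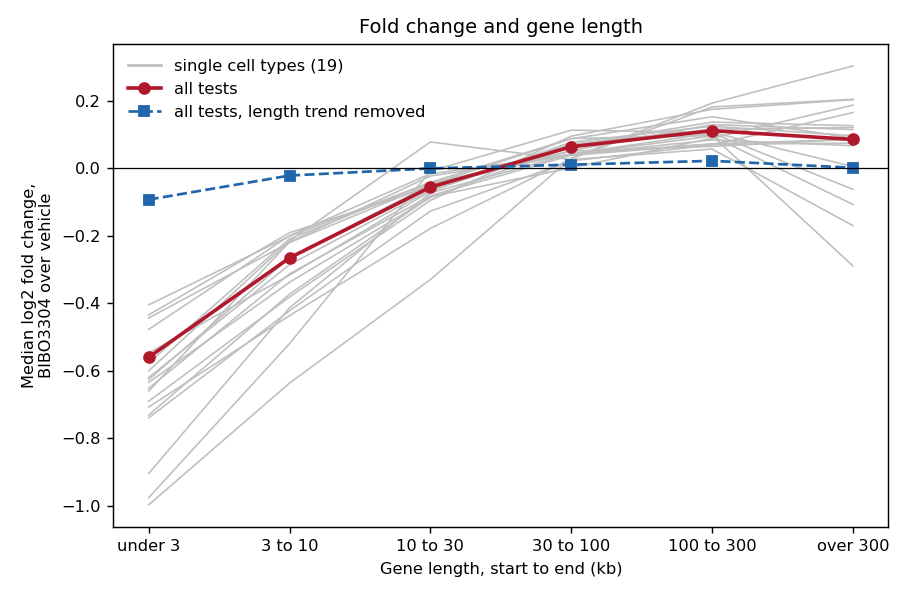
Median log2 fold change of BIBO3304 against vehicle by gene length class in kb, with each tested type in grey, all types together in red, and all types with the length trend removed as a blue dashed line. The red line runs from -0.56 under 3 kb to 0.11 at 100 to 300 kb.

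The lists of immune function are read against the 0.307% of all tests that were called. Interferon gamma response genes had 1 call in 166 tests (0.602%), Iigp1, with 108 positive differences and a median of 0.23. Chemokines of myeloid cells had 1 call in 123 tests (0.813%), Ccl6, with a median of -0.50. Genes for NF-kB cytokines and feedback had 1 call in 193 tests (0.518%), Cxcl1, with a median of -0.31. Antigen presentation by MHC class II had 0 calls by edgeR in 114 tests (36 at an unadjusted p under 0.05, 1 call by DESeq2) and a median of -0.45, with a type median of -0.91 in alveolar fibroblasts and -1.45 in T cells, which make little of it, and 0.40 in B cells and 0.06 in dendritic cells, which make much. By edgeR, collagens and matrix genes had 0 calls in 217 tests (median -0.12), cell cycle genes 0 in 87 (median -0.29), VEGF and endothelial growth factors 0 in 112 (median 0.00), and neurotrophic factors 0 in 30 (median 0.18). Their tests at an unadjusted p under 0.05 numbered 54, 11, 22 and 4 in that order, and DESeq2 called 3, 0, 1 and 0.

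The same drug comparison in lungs with seeded PDAC cells differed. The test of the difference between the drug's effect with and without PDAC cells called 469 of 113537 tests (0.413%) by edgeR. It subtracts the effect without PDAC cells, by which the genes named below were chosen, and that choice favours a difference of opposite sign. In alveolar fibroblasts Npas2 was at 14.6 and 35.7 CPM in BIBO3304 samples with PDAC cells and 96.2 and 43.7 CPM in vehicle samples with PDAC cells, the opposite order to lungs without PDAC cells, and the difference of effects was -3.99 ± 0.60 (SE, adjusted p 0.00665). Mt2 in the same cells was at 401 and 412 CPM under BIBO3304 with PDAC cells and 165 and 145 CPM under vehicle with PDAC cells, also the opposite order, with a difference of 2.85 ± 0.31 (adjusted p 0.000372). Npas2 was positive in 0 of 9 types and Tef in 10 of 10 in lungs with PDAC cells, against 9 of 9 and 0 of 10 without them. The types share the same samples, so these counts are not independent. Depth per cell was the other way round as well, with medians of 2417 and 1623 transcripts under BIBO3304 with PDAC cells and 3411 and 2411 under vehicle with PDAC cells, and its part was not tested. Each arm with PDAC cells had 2 samples, and 1 of them, vehicle 2 with PDAC cells, held 0 annotated cancer cells. The count of differences was 4285 without that sample and 37 without BIBO3304 2 with PDAC cells, where the lone sample of the arm is assumed to vary like the other groups. No cell type's share passed this test (0 of 22, with 5 at an unadjusted p under 0.05).

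BIBO3304 was set against 6-OHDA directly, since their comparisons with vehicle share the vehicle samples. The test called 132 of 113537 tests (0.116%), 79 higher and 53 lower under BIBO3304. It reuses the BIBO3304 samples, and most genes named below were chosen by their difference from vehicle in those samples. That choice favours a difference of the same sign from 6-OHDA, so such differences are not separate support. Npas2 in alveolar fibroblasts was at 65.2, 55.6 and 109 CPM under BIBO3304 and 11.004, 5.99 and 3.91 CPM under 6-OHDA (3.43, adjusted p 0.000939), and Arntl at 88.0, 95.5 and 123 CPM under BIBO3304 and 31.2, 26.4 and 16.4 CPM under 6-OHDA (2.04, adjusted p 0.00956). Both genes were higher in every BIBO3304 sample. Dbp was lower under BIBO3304 (-2.93, adjusted p 0.0312), with 8.87, 13.98 and 26.2 CPM under 6-OHDA, and so was Mt2 (-1.02, adjusted p 0.0467), with 175, 175 and 221 CPM under 6-OHDA. Adra1a in alveolar fibroblasts, at 443, 352 and 286 CPM under 6-OHDA, was higher under BIBO3304 (0.92, adjusted p 0.0467). In interstitial macrophages St18 (1.80, adjusted p 0.00696), Tanc2 (1.42, adjusted p 0.0186) and Mdfic (1.07, adjusted p 0.0186) were higher under BIBO3304 than under 6-OHDA and Olr1 lower (-1.998, adjusted p 0.0313). Of the cell type shares, club cells alone passed, with a log2 fold change of -1.99 (adjusted p 0.0289), while the share of alveolar macrophages was 17.8% ± 1.94 under BIBO3304 and 22.3% ± 1.93 under 6-OHDA (SD, n = 3 each) and did not pass. The number of calls was 59, 25 and 208 without BIBO3304 1, 2 or 3 and 209, 27 and 141 without 6-OHDA 1, 2 or 3.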

How the data were processed

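Counts were compared between 3 BIBO3304 and 3 vehicle samples without PDAC cells. The members and gene lists were chosen with earlier results of these data known. The authors deposited a matrix of raw transcript counts per gene and cell and a table with each cell's sample, condition, seeding state, cell type and mitochondrial percent, as the authors computed it. The submitters' processing notes name Seurat 5.3.0 and build mm39. No aligner, counting tool or doublet step is named in the sources used here. GEO's entries are 16 sublibraries that each hold all samples, so groups came from the deposited table, where IV was read as PDAC cells seeded.

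For each sample and type with at least 20 cells (at least 2 samples per group), cell counts were added up. Genes passing filterByExpr were scaled by TMM and fitted over 6 groups in edgeR 4.0.16 (quasi-likelihood), with Benjamini-Hochberg adjustment within a type and a threshold of 0.05. The same tool tested shares on cell numbers, scaled by total cells. No doublet caller was run here. Alternatives included DESeq2 1.42.0, other scaling and filters, leaving out samples, and a fit without the loess trend over gene length. The fits were tested on simulated data for alveolar fibroblasts, alveolar type 2 cells, interstitial macrophages and B cells. Of 2-fold changes 26% to 51% were called, and of 4-fold changes 75% to 93%. Unchanged genes made up 4.39% to 6.9% of those calls. The simulation held no length trend and no outlying sample, so it cannot show how the fits behave under these. Samples held 13309318 to 26555562 transcripts, and intervals and floors (3 counts) cover counting error only.

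Named genes were those called in 2 or more types, the 5 largest rises and 5 largest falls at a mean of 20 CPM or more in the 5 types with the most calls (without predicted, ribosomal protein, mitochondrial and immune receptor variable genes), the called gene with the smallest p in each other type, NPY and clock list members at 20 CPM or more in the type where each was highest, and up to 4 called members of each other list. Others are marked as chosen after their values were seen. A gene that this rule names is not reported here.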

Additional observations from a re-analysis of the deposited data

Results flagged for a closer look

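The effect of BIBO3304 with PDAC cells minus its effect without them was tested in edgeR over all genes and types. Of 113537 tests 469 passed (0.413%). Of 90 pairs of a gene and a type chosen for description, 35 passed, with 20 positive and 15 negative differences on the log2 scale. Most pairs were chosen for their effect without PDAC cells, which this test subtracts. That choice favours an opposite sign and raises the number that pass, so neither is a separate result. A positive value means that the effect with PDAC cells was the higher one.

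In alveolar fibroblasts the clock genes differed by -3.99 for Npas2, -2.56 for Arntl, -1.18 for Clock and 4.44 for Dbp, each opposite in sign to the effect without PDAC cells. The metallothioneins Mt2 and Mt1 differed by 2.85 and 1.71. Genes that rose without PDAC cells had negative differences, at -1.37 for Fat3, -1.49 for Plxna2 and -1.13 for Vgll3, and Adra1a, which did not pass without PDAC cells, was at -1.42. Genes that fell had positive ones, at 1.46 for Junb, 0.96 for C4b, 2.05 for Arf5, 1.88 for S100a6, 1.30 for Sphk1 and 1.57 for Plce1. In adventitial fibroblasts the values were 2.57 for Mt2 and 1.92 for S100a6.

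In alveolar type 2 cells they were -2.99 for Npas2, -2.53 for Arntl, 2.40 for Ccl6, 2.44 for Cyba, 3.04 for Srgn, 4.22 for Fabp4, 3.50 for Psmb10 and 2.18 for Cox5a. In interstitial macrophages they were -2.45 for Tanc2, -2.59 for St18, -2.43 for Cnksr3, -3.14 for Zdhhc14, -1.84 for Mdfic, -1.92 for Pitpnc1 and 1.64 for Anp32b. In B cells they were 3.14 for Tox and 3.41 for Cd300a.

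Median depth per cell was 2417 and 1623 transcripts under BIBO3304 with PDAC cells and 3411 and 2411 under vehicle with PDAC cells, the reverse of its order without PDAC cells. Its part in these differences was not tested. The 469 became 4285 without vehicle 2 with PDAC cells, which held 0 annotated cancer cells, and 37 without BIBO3304 2 with PDAC cells.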

How the results depend on the processing

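The number of genes called in BIBO3304 against vehicle (349) was 851 by DESeq2, 761 with the compared samples alone, 2831 without the filter on low counts, 882 without the 5% deepest cells, 188 with the length trend removed and 5 without BIBO3304 2 and vehicle 2 together. The length trend and the joint omission were chosen after seeing the data. It was 298 with RLE size factors, 348 with a minimum of 50 cells, and 23 to 712 with 1 sample left out. The difference with PDAC cells (469) was 996 by DESeq2, 159 with the length trend removed and 37 to 4285 with 1 sample left out. BIBO3304 against 6-OHDA (132) was 216 by DESeq2 and 25 to 209 with 1 sample left out. Passing shares (2) were 3 with TMM on cell numbers and 2 to 3 with 1 sample left out. The replicate block gave 368 calls, 140 of them shared with the 349 and 0 in alveolar fibroblasts, and 5 passing shares. The sources used here give no pairing, so same-numbered samples were not treated as pairs. Their correlations were -0.26 to 0.06 in 5 types, none over 0.1. BIBO3304 2 was the deepest sample per cell and vehicle 2 the shallowest, which can lower such correlations, so they cannot exclude a pairing. Of the 76 called genes and types of the text, 66 kept their call with RLE size factors, 62 of 69 by DESeq2, 41 with the length trend removed and 45 of 72 when thinned, and 0 changed sign under these settings. The cause was not tested.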

Other observations

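Type I interferon response genes had 0 calls by edgeR in 102 tests over 16 types (19 at an unadjusted p under 0.05, 2 calls by DESeq2) and 78 positive differences. Their median log2 fold change was 0.49, against 0.00 over all tests, and 0.15 without BIBO3304 2. The median was 0.64 in gCap cells, where 14 of 14 members were positive, and 1.36 in neutrophils, where 5 of 5 were. In alveolar macrophages it was -0.38, with 2 of 12 positive. Heat shock chaperones, which fold proteins under stress, were positive in 12 of 12 tests in dendritic cells (median 0.77) and 12 of 13 in alveolar fibroblasts (median 0.59), and 2 of 8 in smooth muscle cells and pericytes (median -0.39).

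Cells annotated as cancer cells numbered 0 of 13312 under BIBO3304, which allows a share of up to 0.0225%, and 4 of 21881 under vehicle, although neither group was seeded.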
